A study of Mus musculus with 9 samples.

Results

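Fibrillar collagens are the rope-like proteins that give the heart wall its tensile strength. The genes described are those of 5 chains of types I, III and V collagen (Col1a1, Col1a2, Col3a1, Col5a1 and Col5a2) and of 5 enzymes or helpers that finish and cross-link them (Lox, Loxl1, Loxl2, P4ha3 and Pcolce2). They were chosen by name, and a gene was taken as measured where a probe of the array was annotated to it alone. This held for 9 of the 10 genes, with a single probe each, out of 19933 genes measured in all. The probe that names Loxl2 is annotated to 2 genes, so Loxl2 was not analysed here.

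Messenger RNA had been profiled on 9 Affymetrix mouse Gene 1.0 ST arrays, 3 per group, from adult cardiac fibroblasts, embryonic cardiac fibroblasts and embryonic cardiomyocytes. The cardiomyocytes were positive for an Nkx-YFP reporter, which marks cells of the cardiac lineage, and the stated purpose was to find fibroblast factors that drive the division of myocytes. No strain, age, embryonic stage, sex or culture step is given for any group in the sources used here. The 3 arrays of a group are named biological replicates, and their number limits the precision.

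Collagen chains are made in the endoplasmic reticulum, where prolyl 4-hydroxylases such as P4ha3 modify prolines so that 3 chains can wind into a stable triple helix. After secretion the end pieces are cut off, a step that Pcolce2 enhances at the carboxyl end, and the trimmed molecules assemble into fibrils. Lysyl oxidases (Lox and the Loxl enzymes) then oxidise lysines, which lets neighbouring molecules be joined covalently. In the heart, fibroblasts are the main source of these proteins.

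Values are on the log2 scale of RMA, on which 1 unit is a doubling, and the arrays had medians of 7.60 to 7.65. Differences between groups were tested with limma over all 19933 genes and called at a Benjamini-Hochberg adjusted p under 0.05. One library was less like its group than the others: adult fibroblast replicate 3 had a mean Pearson correlation over all probes of 0.970 with the other adult arrays, where replicates 1 and 2 each had 0.981. The 3 measured Y-linked genes averaged 5.46 to 5.84 on the adult fibroblast arrays, against 8.18 to 8.35 on the embryonic fibroblast and 8.23 to 9.02 on the cardiomyocyte arrays, so sex and age cannot be told apart in comparisons with the adult cells.

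The labels were set against markers that are not among the 10 genes. The 10 fibroblast markers (such as Dcn, Pdgfra and Tcf21) had a mean log2 value of 11.52 to 11.74 on the adult fibroblast arrays, 10.14 to 10.36 on the embryonic fibroblast arrays and 8.74 to 9.02 on the cardiomyocyte arrays. The 12 cardiomyocyte markers averaged 7.90 to 8.27 in adult fibroblasts, 10.84 to 11.49 in embryonic fibroblasts and 12.21 to 12.30 in cardiomyocytes. Transcripts of heart muscle were thus high in the preparation labelled embryonic fibroblasts, as with Tnnt2, a troponin gene (13.38 ± 0.10 there, 13.82 ± 0.06 in cardiomyocytes and 9.83 ± 0.68 in adult fibroblasts, SD, n = 3 each). The marker Nkx2-5, however, was alike in the groups and passed in no comparison. It averaged 8.23 ± 0.15 in adult fibroblasts, 8.25 ± 0.08 in embryonic fibroblasts and 8.30 ± 0.13 in cardiomyocytes. Endothelial markers averaged 8.87 to 9.86 in adult fibroblasts, 9.47 to 9.91 in embryonic fibroblasts and 8.45 to 8.82 in cardiomyocytes. Macrophage markers averaged 8.91 to 9.65 in adult fibroblasts, 8.25 to 8.66 in embryonic fibroblasts and 7.53 to 7.61 in cardiomyocytes. RMA values have no zero, so no marker can be called absent.

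**Figure D1:**
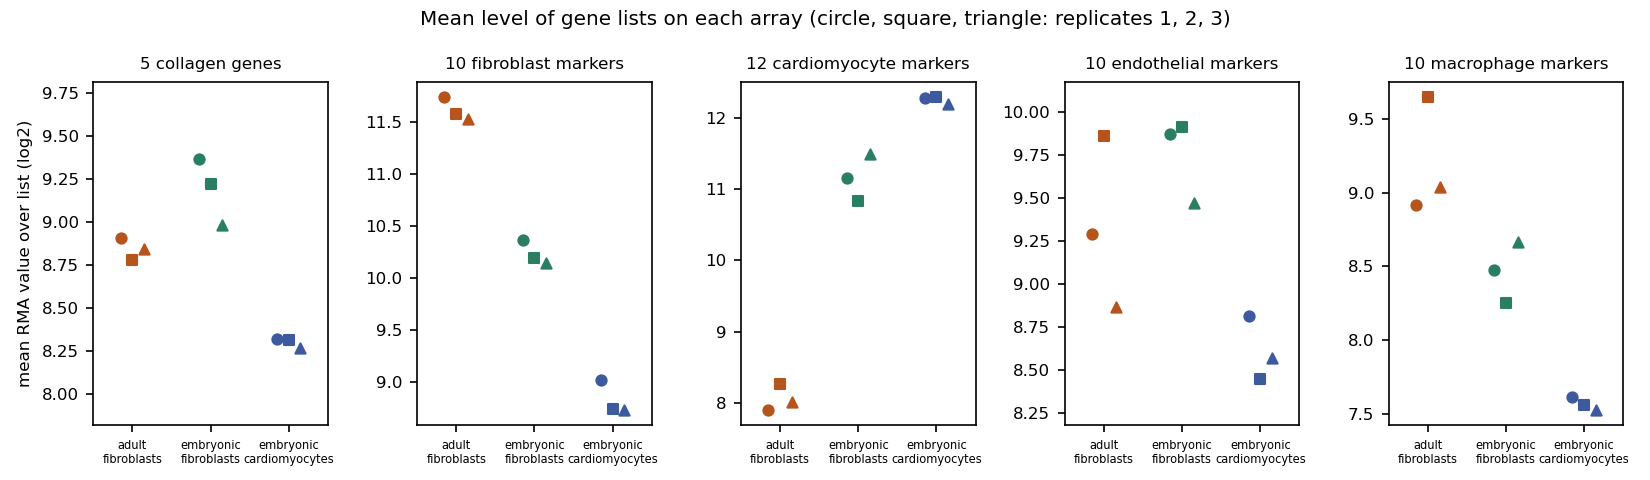
Mean RMA value (log2) over the genes of a list on each array, with adult fibroblasts, embryonic fibroblasts and embryonic cardiomyocytes from left to right and replicates 1 to 3 as circle, square and triangle. The vertical axes differ in range. The fibroblast markers lie highest in the adult cells, whereas the mean of the 5 collagen genes lies between 8.98 and 9.37 in embryonic fibroblasts and between 8.78 and 8.91 in adult fibroblasts.

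The main comparison of age set adult against embryonic fibroblasts. Of the 9 measured genes, Pcolce2 was higher in adult fibroblasts, Col3a1, Col5a2 and P4ha3 were lower, and 5 did not pass the test. Over all genes tested, 8.34% were called higher and 11.2% lower. The groups did not overlap for 2 of the 9 genes higher in adult fibroblasts and 5 lower, against 16.9% and 16.1% of all genes. The median log2 difference of the 9 genes was -0.25, against 0.04 over all genes. In these bulk preparations, fewer cells of a type and less RNA per cell cannot be told apart. Without adult fibroblast replicate 3, after quantile normalization and with array weights, Loxl1 passed as well, giving 2 genes higher and 3 lower.

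Promoter sequences are shown for 4 of the genes whose values follow: Col1a2 and Col3a1, which were higher in both fibroblast groups than in cardiomyocytes, and P4ha3 and Pcolce2, which differed in opposite directions between adult and embryonic fibroblasts. RefSeq promoter sequences of GRCm38.p6 were matched for 5 of the 10 genes, namely Col1a2, Col3a1, Col5a1, P4ha3 and Pcolce2, and not for Col1a1, Col5a2, Lox, Loxl1 and Loxl2. The 250 bases before the annotated start are given 5′ to 3′ on the plus strand, at chr6:4505368-4505617 for Col1a2, chr1:45311288-45311537 for Col3a1, chr7:100285270-100285519 for P4ha3 and chr9:95637378-95637627 for Pcolce2. Capitals mark 4 short motifs on either strand. CCAAT appears as ATTGG on the other strand. The TATA motif was searched as TATAAA and reads TTTATA there. The Smad-binding motif CAGACA reads TGTCTG there. The GC box was searched as GGGCGG and reads CCGCCC there.
Col1a2: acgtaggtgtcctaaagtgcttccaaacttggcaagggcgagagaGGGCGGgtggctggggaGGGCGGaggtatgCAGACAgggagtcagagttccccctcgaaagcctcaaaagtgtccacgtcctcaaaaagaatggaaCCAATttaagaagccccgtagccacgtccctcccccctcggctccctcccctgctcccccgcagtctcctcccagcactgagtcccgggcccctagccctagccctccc
Col3a1: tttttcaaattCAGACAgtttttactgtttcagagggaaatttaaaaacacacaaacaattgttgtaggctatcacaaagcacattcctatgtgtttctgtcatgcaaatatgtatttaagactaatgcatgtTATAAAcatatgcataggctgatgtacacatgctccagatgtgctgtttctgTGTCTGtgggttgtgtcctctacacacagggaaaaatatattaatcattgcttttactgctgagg
P4ha3: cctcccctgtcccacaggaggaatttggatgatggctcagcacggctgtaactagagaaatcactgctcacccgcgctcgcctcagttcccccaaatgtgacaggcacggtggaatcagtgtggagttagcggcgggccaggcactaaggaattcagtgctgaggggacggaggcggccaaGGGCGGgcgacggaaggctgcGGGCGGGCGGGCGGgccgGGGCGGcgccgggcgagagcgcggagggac
Pcolce2: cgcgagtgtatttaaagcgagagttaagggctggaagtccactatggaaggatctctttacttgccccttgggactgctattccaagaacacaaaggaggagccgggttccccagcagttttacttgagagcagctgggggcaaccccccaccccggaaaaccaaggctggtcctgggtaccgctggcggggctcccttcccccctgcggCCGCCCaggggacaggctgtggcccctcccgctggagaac
Col1a2 held CCAAT 109 to 105 bases before the start, with CAGACA and 2 copies of GGGCGG further out. Col3a1 held TATAAA 117 to 112 bases before the start and CAGACA on each strand, and no GGGCGG. Col5a1, whose sequence is not shown, was also higher in both fibroblast groups than in cardiomyocytes. It held CAGACA on the other strand and GGGCGG on each strand, and neither CCAAT nor TATAAA. P4ha3 held 5 copies of GGGCGG, 3 of them overlapping, and Pcolce2 a single copy on the other strand. In the same window of all 32851 promoters of the table, CCAAT was found in 33.8%, TATAAA in 12.4%, CAGACA in 17.1% and GGGCGG in 32.7%. A match of letters is not a measured binding site, and these expression arrays do not measure binding.

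Type III collagen, encoded by Col3a1, forms thin fibrils in stretchable tissue. Col3a1 read 9.15, 9.10 and 9.10 on the 3 adult fibroblast arrays, against 9.78, 9.72 and 9.45 on the embryonic fibroblast arrays, and 8.44, 8.31 and 8.30 on the cardiomyocyte arrays. The 3 groups did not overlap, with embryonic fibroblasts highest. The gene was 1.45-fold lower in adult than in embryonic fibroblasts (log2 difference -0.54 ± 0.10, SE, adjusted p = 0.00366). It was 2.46-fold higher in embryonic fibroblasts than in cardiomyocytes (1.30 ± 0.10, adjusted p = 5.81e-05).

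Col5a2 encodes a chain of type V collagen, a minor component that helps to set fibril diameter. Its values were 8.76, 8.53 and 8.66 in adult fibroblasts, 9.42, 9.31 and 8.997 in embryonic fibroblasts and 7.98, 7.91 and 7.87 in cardiomyocytes. Here too every embryonic fibroblast array lay above every adult one, and every cardiomyocyte array lay below both. The adult level was 1.51-fold lower than the embryonic fibroblast level (-0.59 ± 0.12, adjusted p = 0.00558). Embryonic fibroblasts were 2.50-fold above cardiomyocytes (1.32 ± 0.12, adjusted p = 0.000119). In the RefSeq gene table Col3a1 and Col5a2 are neighbouring protein-coding genes on chromosome 1.

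The other type V chain in the set, Col5a1, showed smaller differences. It read 8.54, 8.54 and 8.75 in adult fibroblasts and 8.89, 8.67 and 8.53 in embryonic fibroblasts, and the cardiomyocyte arrays read 8.26, 8.25 and 8.32. The fibroblast groups overlapped, and their difference did not pass the test (-0.09 ± 0.10, 95% interval -0.33 to 0.15, adjusted p = 0.605). Embryonic fibroblasts were 1.34-fold above cardiomyocytes (0.42 ± 0.10, adjusted p = 0.0184) and adult fibroblasts 1.26-fold (0.33 ± 0.10, adjusted p = 0.0339). The first of these calls was lost without cardiomyocyte replicate 1 or 2 or embryonic fibroblast replicate 1 or 2 (adjusted p = 0.0600, 0.0657, 0.0650 and 0.0540). The second was lost without any single one of the 3 cardiomyocyte arrays (adjusted p = 0.0904, 0.0966 and 0.0610), embryonic fibroblast replicate 2 (0.0522) or adult fibroblast replicate 3 (0.0847).

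Type I collagen, the main fibre of heart and scar, is built from the chains of Col1a1 and Col1a2. Col1a1 read 9.06, 8.81 and 8.85 in adult fibroblasts, 9.39, 9.21 and 8.86 in embryonic fibroblasts and 8.50, 8.48 and 8.51 in cardiomyocytes. For Col1a2 the values were 9.03, 8.93 and 8.84 in adult fibroblasts, 9.35, 9.20 and 9.08 in embryonic fibroblasts and 8.42, 8.62 and 8.33 in cardiomyocytes. All fibroblast arrays lay above all cardiomyocyte arrays in both genes, while adult and embryonic fibroblasts overlapped in Col1a1 and not in Col1a2.

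Neither type I chain passed the test between adult and embryonic fibroblasts. The log2 difference was -0.25 ± 0.13 for Col1a1 (95% interval -0.54 to 0.04, adjusted p = 0.235) and -0.28 ± 0.10 for Col1a2 (95% interval -0.51 to -0.04, adjusted p = 0.106). Without embryonic fibroblast replicate 3 the adult level of Col1a1 was called lower (-0.40, adjusted p = 0.0331). In embryonic fibroblasts against cardiomyocytes Col1a1 was 1.58-fold higher (0.66 ± 0.13, adjusted p = 0.00612) and Col1a2 1.68-fold higher (0.75 ± 0.10, adjusted p = 0.00106). In adult fibroblasts against cardiomyocytes Col1a1 was 1.33-fold higher (0.41 ± 0.13, adjusted p = 0.0355) and Col1a2 1.39-fold higher (0.48 ± 0.10, adjusted p = 0.00565). The Col1a1 call in the adult comparison was lost without any single one of the 3 cardiomyocyte arrays (adjusted p = 0.0899, 0.0944 and 0.0771), embryonic fibroblast replicate 2 (0.0529) or adult fibroblast replicate 1 (0.117).

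**Figure D2:**
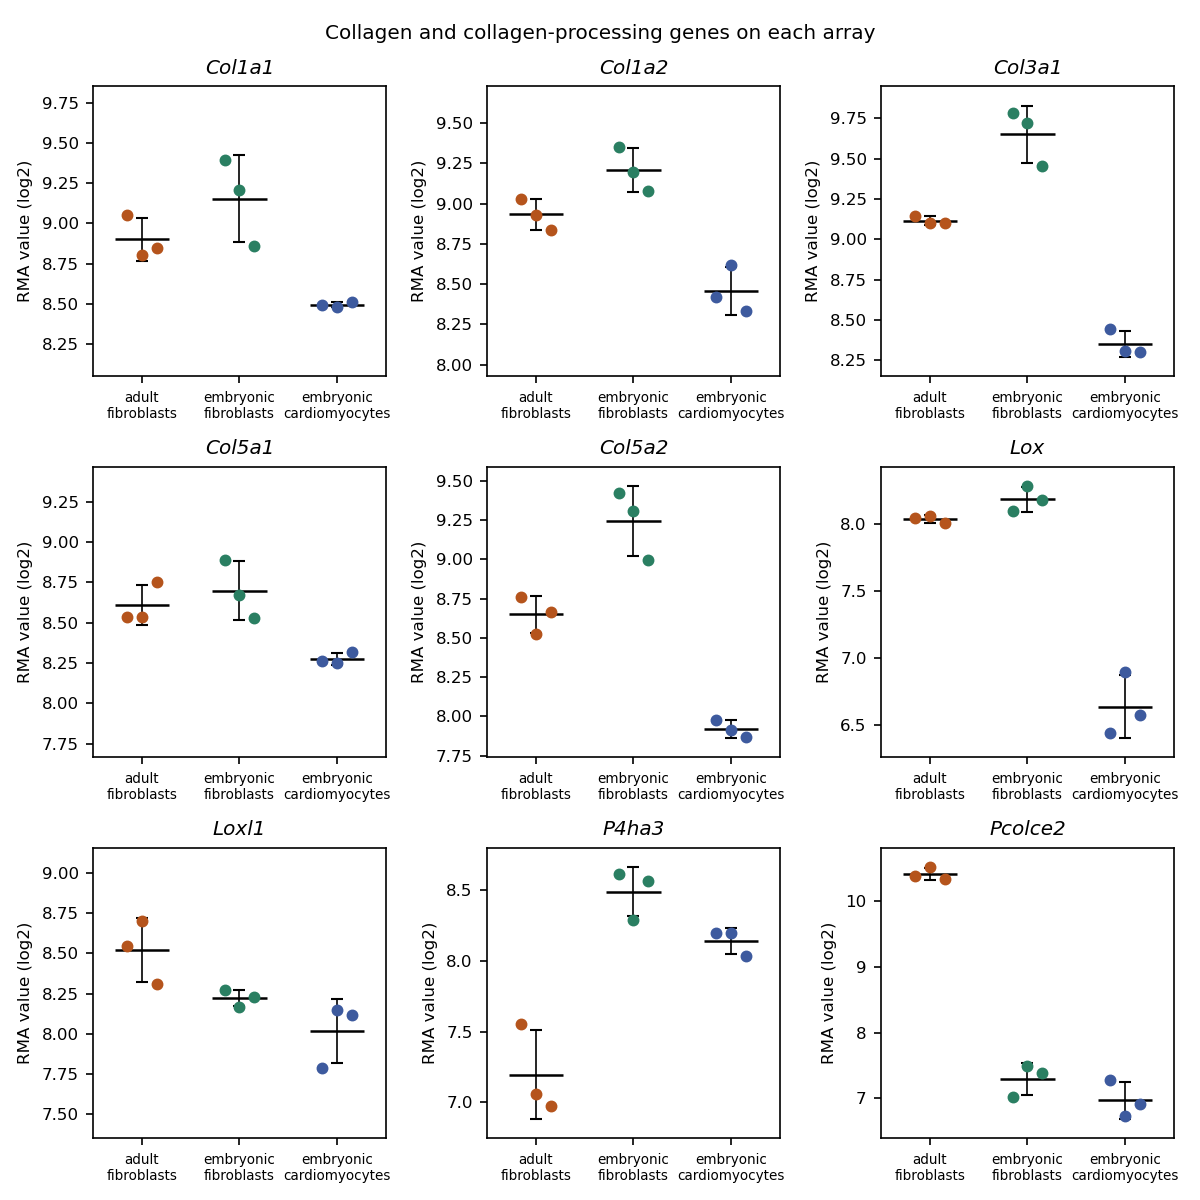
RMA value (log2) of each of the 9 measured genes on the 9 arrays, with adult fibroblasts, embryonic fibroblasts and embryonic cardiomyocytes from left to right. Points are arrays, in order of replicate number, and bars are the mean ± SD of 3 arrays. Each panel has its own vertical range. The 5 collagen genes have their highest mean in embryonic fibroblasts and their lowest in cardiomyocytes, P4ha3 is lowest in adult fibroblasts, and Pcolce2 lies above 10.3 only there.

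The collagen genes also varied together among the embryonic fibroblast arrays. Replicate 1 was highest and replicate 3 lowest in all 5 collagen genes. This order was not particular to them. Means of related lists for replicates 1, 2 and 3 were 8.31, 8.26 and 8.13 for other fibrillar collagens. They were 8.80, 8.74 and 8.55 for fibril-associated and filament collagens, and 9.59, 9.54 and 9.46 for procollagen modification, folding and export. For collagen receptors replicate 2 was highest (8.64, 8.67 and 8.55). Once each gene's group means were subtracted, the 10 pairs of collagen genes had Pearson correlations of 0.20 to 0.95 over the 9 arrays (median 0.63), and the 26 other pairs of the 9 genes had correlations of -0.53 to 0.53 (median -0.18). These arrays share their RNA between genes, so the correlations are a description. Embryonic fibroblast replicate 3 also had the highest cardiomyocyte marker mean of its group (11.49, against 11.17 and 10.84 for replicates 1 and 2). Its fibroblast marker mean (10.14, against 10.36 and 10.19) and endothelial marker mean (9.47, against 9.87 and 9.91) were the lowest. Its macrophage marker mean (8.66, against 8.475 and 8.25) and epicardial marker mean (8.60, against 8.57 and 8.42) were the highest. The part of these markers in the collagen values was not tested.

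Differences between 2 genes on the same array show whether their probes moved apart. A total of 6 pairs were compared in 3 comparisons with exact two-sided permutation tests, in which 3 against 3 arrays cannot give a p below 0.1. The lowest value was reached in 9 of the 18 tests, and after adjustment over the 18 the lowest p was 0.2. None therefore passed, and the sizes are given as a description.

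Col1a1 and Col1a2, the partners of type I collagen, kept a like distance: Col1a1 minus Col1a2 averaged -0.03 ± 0.08 in adult fibroblasts, -0.05 ± 0.14 in embryonic fibroblasts and 0.04 ± 0.16 in cardiomyocytes (log2 difference within an array, SD, n = 3 each), and the groups overlapped. The neighbours Col3a1 and Col5a2 did so more closely, with 0.47 ± 0.10 in adult fibroblasts, 0.41 ± 0.05 in embryonic fibroblasts and 0.43 ± 0.03 in cardiomyocytes. For the type V partners, Col5a1 minus Col5a2 was -0.04 ± 0.16 in adult fibroblasts, -0.55 ± 0.09 in embryonic fibroblasts and 0.36 ± 0.09 in cardiomyocytes, with no overlap between any 2 groups (exact permutation p = 0.1 in each comparison). Col1a1 minus Col3a1 likewise separated all groups, at -0.21 ± 0.11 in adult fibroblasts, -0.50 ± 0.10 in embryonic fibroblasts and 0.14 ± 0.08 in cardiomyocytes (exact permutation p = 0.1 in each comparison).

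**Figure D3:**
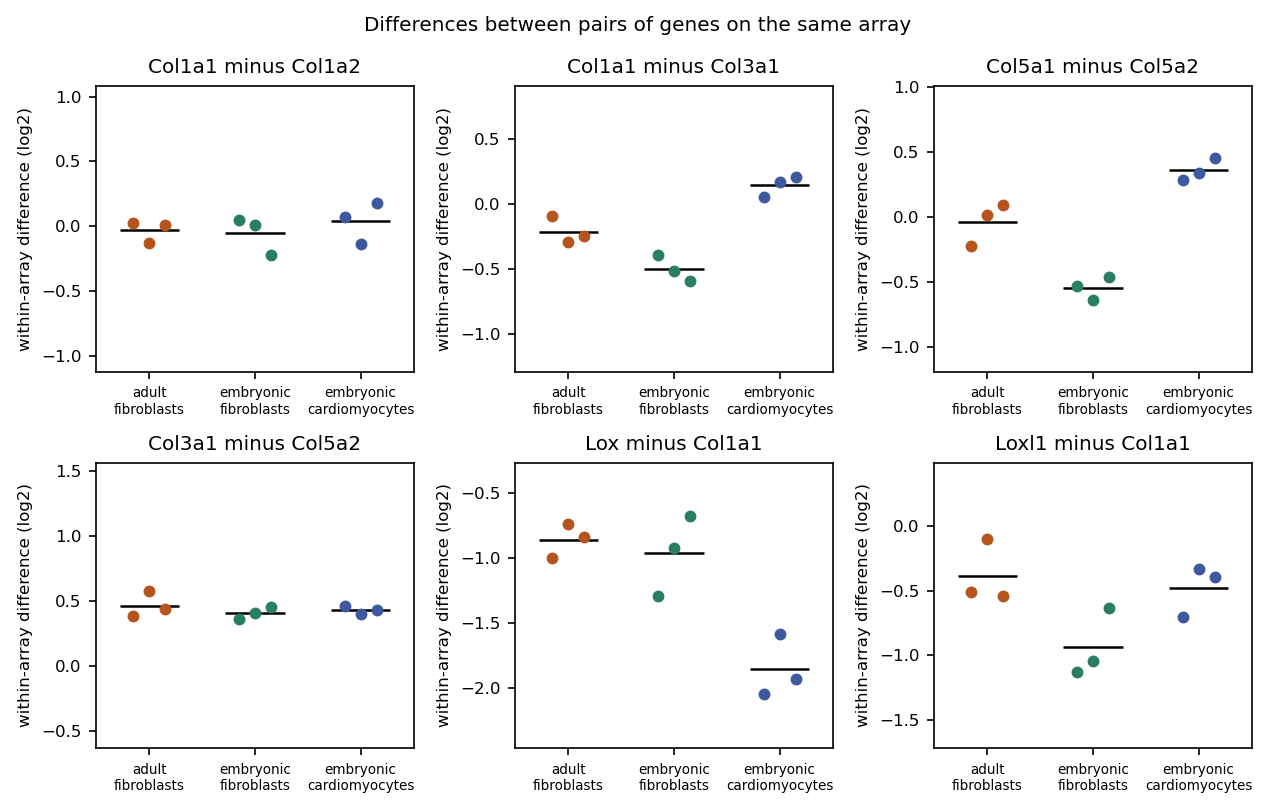
Difference between the RMA values (log2) of 2 genes on the same array, for 6 pairs, with adult fibroblasts, embryonic fibroblasts and embryonic cardiomyocytes from left to right. Points are arrays, lines are means of 3 arrays, and all panels span the same height. Col3a1 minus Col5a2 stays near 0.4 in the 3 groups, whereas Col5a1 minus Col5a2 is separate in each.

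Of the enzymes and helpers, Pcolce2 showed the largest difference of the 9 genes. It encodes a secreted protein that speeds the removal of the carboxyl end piece of procollagen. Pcolce2 read 10.39, 10.52 and 10.33 in adult fibroblasts, against 7.02, 7.48 and 7.38 in embryonic fibroblasts, and 7.28, 6.72 and 6.91 in cardiomyocytes. The adult arrays were far above all others, and the embryonic groups overlapped. Adult fibroblasts were 8.68-fold above embryonic fibroblasts (3.12 ± 0.16, adjusted p = 2.49e-06), the 30th largest increase among the 19933 genes. They were 10.9-fold above cardiomyocytes (3.44 ± 0.16, adjusted p = 4.42e-07). Between the embryonic groups the difference did not pass (0.32 ± 0.16, 95% interval -0.03 to 0.68, adjusted p = 0.204).

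Pcolce, the related enhancer, served as a comparison. It averaged 9.79 ± 0.43 in adult fibroblasts and 9.23 ± 0.16 in embryonic fibroblasts, and this difference missed the threshold (0.56 ± 0.19, adjusted p = 0.0745). Within each array, Pcolce2 minus Pcolce was 0.18 to 0.98 in adult fibroblasts, -2.39 to -1.68 in embryonic fibroblasts and -2.51 to -1.92 in cardiomyocytes. The balance of the 2 probes was thus apart in the adult cells. This pair was chosen after the values were seen, and it was not tested.

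P4ha3 encodes a catalytic subunit of prolyl 4-hydroxylase. It read 7.56, 7.06 and 6.98 in adult fibroblasts, 8.61, 8.29 and 8.56 in embryonic fibroblasts and 8.19, 8.20 and 8.03 in cardiomyocytes. All adult arrays lay below all arrays of the other groups and below the array medians. The gene was 2.44-fold lower in adult than in embryonic fibroblasts (-1.29 ± 0.15, adjusted p = 0.000355) and 1.92-fold lower in adult fibroblasts than in cardiomyocytes (-0.94 ± 0.15, adjusted p = 0.000928). Between embryonic fibroblasts and cardiomyocytes the groups did not overlap, but the difference did not pass (0.35 ± 0.15, 95% interval 0.00 to 0.69, adjusted p = 0.157). It passed without adult fibroblast replicate 1 (adjusted p = 0.0470) and with only the embryonic groups fitted (adjusted p = 0.0435).

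The other catalytic subunits of the enzyme, P4ha1 and P4ha2, were set beside it. P4ha1 averaged 10.40 ± 0.04 in adult fibroblasts, 10.08 ± 0.07 in embryonic fibroblasts and 9.38 ± 0.19 in cardiomyocytes. It was higher in adult fibroblasts than in cardiomyocytes (1.02 ± 0.10, adjusted p = 3.67e-05) and in embryonic fibroblasts than in cardiomyocytes (0.70 ± 0.10, adjusted p = 0.00122), and its difference between the fibroblasts did not pass (0.32 ± 0.10, adjusted p = 0.0543). P4ha2 passed in none of the 3 comparisons (log2 differences 0.38, -0.39 and -0.008). P4ha3 minus P4ha1 was -3.42 to -2.80 on the adult fibroblast arrays, against -1.86 to -1.42 on the embryonic fibroblast and -1.32 to -1.12 on the cardiomyocyte arrays. P4ha2 and this pair, too, were picked with the values known, and the pair carries no test.

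Lox is the founding lysyl oxidase and cross-links collagen and elastin. Its values were 8.05, 8.06 and 8.01 in adult fibroblasts, 8.10, 8.28 and 8.18 in embryonic fibroblasts and 6.44, 6.90 and 6.58 in cardiomyocytes. Both fibroblast groups lay more than 1 log2 unit above every cardiomyocyte array. Embryonic fibroblasts were 2.92-fold above cardiomyocytes (1.55 ± 0.11, adjusted p = 5.78e-05), the largest difference of the 9 genes in that comparison, and adult fibroblasts were 2.64-fold above them (1.40 ± 0.11, adjusted p = 1.08e-05). Between adult and embryonic fibroblasts the difference was small and did not pass (-0.15 ± 0.11, 95% interval -0.40 to 0.11, adjusted p = 0.429). Lox minus Col1a1 within an array was -0.86 ± 0.13 in adult fibroblasts, -0.97 ± 0.31 in embryonic fibroblasts and -1.86 ± 0.24 in cardiomyocytes, and both fibroblast groups lay above cardiomyocytes with no overlap (exact permutation p = 0.1 for each against cardiomyocytes).

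Loxl1, a relative of Lox known for its role in elastic fibres, was ordered differently. It read 8.54, 8.70 and 8.31 in adult fibroblasts, 8.27, 8.17 and 8.23 in embryonic fibroblasts and 7.79, 8.15 and 8.11 in cardiomyocytes. Neighbouring groups in this order did not overlap but lay close. Adult fibroblasts were 1.42-fold above cardiomyocytes (0.50 ± 0.12, adjusted p = 0.0106). Adult against embryonic fibroblasts did not pass (0.30 ± 0.12, 95% interval 0.02 to 0.58, adjusted p = 0.141) and did so without adult fibroblast replicate 3 (0.40, adjusted p = 0.0344), with array weights (0.36, adjusted p = 0.0257) and after quantile normalization (0.37, adjusted p = 0.0416). Embryonic fibroblasts against cardiomyocytes did not pass (0.20 ± 0.12, 95% interval -0.07 to 0.48, adjusted p = 0.319). Loxl1 minus Col1a1 within an array was -0.39 ± 0.24 in adult fibroblasts, -0.93 ± 0.26 in embryonic fibroblasts and -0.48 ± 0.20 in cardiomyocytes, with no overlap between adult and embryonic fibroblasts (exact permutation p = 0.1).

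**Figure D4:**
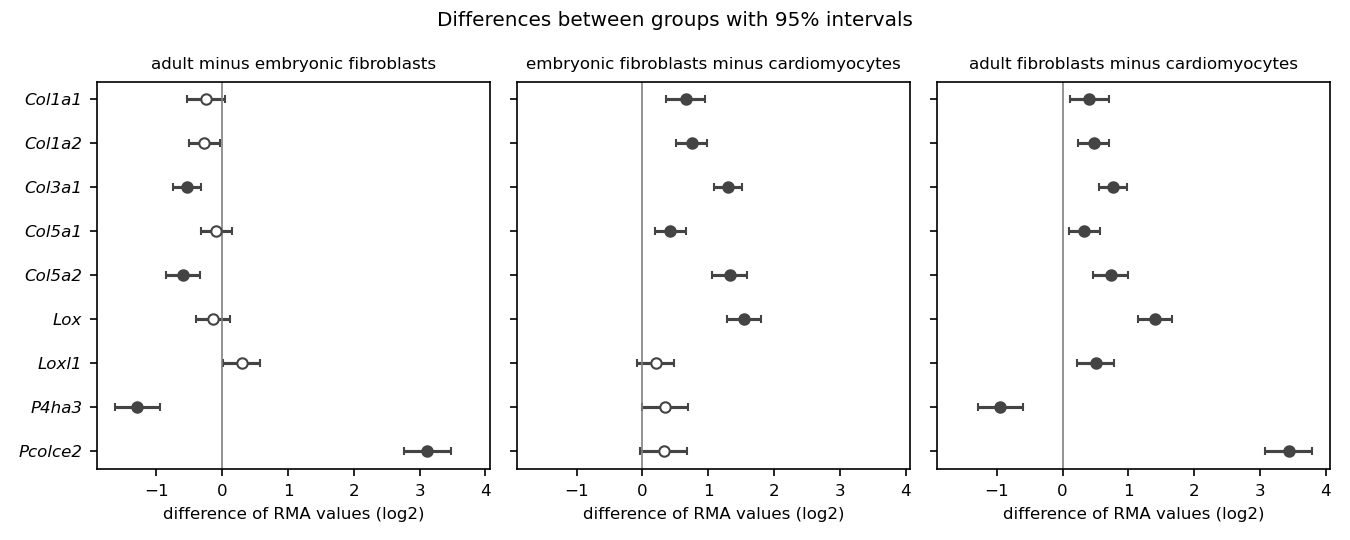
Difference between the group means (log2 of RMA values, horizontal axis shared by the panels) for each of the 9 genes in the 3 comparisons, with 95% intervals from the limma fit. Filled points passed the test. The 5 collagen genes and Lox lie right of 0 against cardiomyocytes in both fibroblast groups, and Pcolce2 and P4ha3 lie farthest from 0, on opposite sides, between adult and embryonic fibroblasts.

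Set against embryonic cardiomyocytes, embryonic fibroblasts had 6 of the 9 genes higher and 0 lower by limma, with 7 higher and 0 lower at an unadjusted p under 0.05. Those 6 were the 5 collagen genes and Lox. Over all genes 10.3% were called higher and 11.1% lower. The groups did not overlap for 8 of the 9 genes, higher in embryonic fibroblasts, and for 0 lower, against 19.3% and 19.8% of all genes. The median log2 difference of the 9 genes was 0.66, against -0.0003 over all genes. All 10 fibroblast markers, 9 of 10 endothelial, 8 of 10 macrophage and 4 of 10 epicardial markers were higher too, and 8 of 12 cardiomyocyte markers were lower. The part of other cell types in the collagen differences was not tested.

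In adult fibroblasts against cardiomyocytes, 8 of the 9 genes were higher and P4ha3 was lower. Here 17.4% of all genes were called higher and 18.2% lower. The groups did not overlap for any of the 9 genes, 8 higher and 1 lower, against 24.2% and 21.7% of all genes, and the median log2 difference was 0.50 for the 9 genes and 0.06 over all genes. This comparison and the one with embryonic fibroblasts share the cardiomyocyte arrays, so they are not independent. The number higher was 6 without any single one of the 3 cardiomyocyte arrays or embryonic fibroblast replicate 2, where the calls of Col1a1 and Col5a1 were lost, and 7 without adult fibroblast replicate 1 or 3. The fibroblast markers were higher in 10 of 10 cases, the macrophage markers in 10 of 10 and the endothelial markers in 5 of 10, and cardiomyocyte markers were lower in 11 of 12.

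The fibroblast markers were also set beside the collagen genes between adult and embryonic fibroblasts. Of the markers 8 of 10 were higher in adult fibroblasts and 0 lower (8 higher and 2 lower at an unadjusted p under 0.05), whereas 0 of the 5 collagen genes were higher and 2 lower (0 and 3 at an unadjusted p under 0.05). The 2 markers with negative differences were Postn (-0.59 ± 0.18, adjusted p = 0.0518), which encodes the matrix protein periostin, and Vim (-0.29 ± 0.09, adjusted p = 0.0625), which encodes vimentin, and neither passed the test. Dcn, which encodes the collagen-binding proteoglycan decorin, averaged 13.49 ± 0.07 in adult fibroblasts and 11.89 ± 0.12 in embryonic fibroblasts. Pdgfra, a receptor gene used to mark fibroblasts, averaged 10.48 ± 0.01 in adult fibroblasts and 9.93 ± 0.09 in embryonic fibroblasts. Col3a1 minus Dcn was -4.42 to -4.31 on the adult arrays and -2.34 to -2.12 on the embryonic fibroblast arrays. The gap was smaller for Col3a1 minus Pdgfra, at -1.39 to -1.35 and -0.57 to -0.05. Dcn and Pdgfra were named after their values were seen, and neither pair was tested. Both are among the 8 markers higher in adult fibroblasts, so these gaps depend on the marker chosen. Postn and Vim, like Col3a1, had negative differences. Markers of other cell types were called in the same comparison, in which 8.34% of all genes were higher and 11.2% lower. Cardiomyocyte markers were lower in 11 of 12 cases, epicardial in 7 of 10 and red cell in 2 of 5, and macrophage markers were higher in 5 of 10. Schwann cell markers were higher in 1 of 6 (16.7%), and chondrocyte and osteoblast markers in 1 of 8 (12.5%). Endothelial markers were higher in 1 and lower in 2 of 10 (10% and 20%). Smooth muscle and pericyte markers were higher in 2 and lower in 4 of 10. Their part in the collagen differences was not tested.

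A further 74 measured genes of collagen assembly and sensing, in 6 lists, were described beside them. In adult against embryonic fibroblasts 6 were higher (8.11%) and 9 lower (12.2%), with a median log2 difference of 0.03. These shares were near those of all genes, 8.34% and 11.2%, as was the median, 0.04. After quantile normalization the split was 11 higher and 8 lower. The number of higher genes was 3 without embryonic fibroblast replicate 2 or adult fibroblast replicate 1, 4 without cardiomyocyte replicate 1 or 2 or embryonic fibroblast replicate 3, and that of lower genes was 5 without embryonic fibroblast replicate 1. In embryonic fibroblasts against cardiomyocytes 17 were higher and 3 lower (23.0% and 4.05%, against 10.3% and 11.1% of all genes). In adult fibroblasts against cardiomyocytes 25 were higher and 8 lower (33.8% and 10.8%, against 17.4% and 18.2% of all genes). The 3 became 1 without cardiomyocyte replicate 1 or embryonic fibroblast replicate 2 and 5 without adult fibroblast replicate 3, and the 25 became 15 without cardiomyocyte replicate 2. The 8 became 5 without cardiomyocyte replicate 1 or embryonic fibroblast replicate 1.

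None of the 6 other fibrillar collagen genes passed between the fibroblasts or between the embryonic groups by limma (1 higher and 1 lower at an unadjusted p under 0.05 between the fibroblasts, and 0 between the embryonic groups). In adult fibroblasts against cardiomyocytes 1 was higher (16.7%, near the 17.4% of all genes). It was Col5a3 (0.33 ± 0.11, adjusted p = 0.0457), which encodes another type V chain. Of 13 fibril-associated and filament collagens, 1 was higher and 1 lower in adult than in embryonic fibroblasts. That is 7.69% each, against 8.34% and 11.2% of all genes. Col12a1, whose protein sits on the fibril surface, averaged 8.66 ± 0.37 in adult fibroblasts and 9.79 ± 0.12 in embryonic fibroblasts (-1.14 ± 0.16, adjusted p = 0.00111), and Col6a3 was higher in the adult cells (0.39 ± 0.11, adjusted p = 0.0396). Against cardiomyocytes 4 of the 13 were higher in each fibroblast group (30.8%) and 0 lower. Over all genes 10.3% were higher in embryonic fibroblasts and 17.4% in adult fibroblasts. Col14a1, another fibril-associated collagen, stood at 10.13 ± 0.11 in adult fibroblasts, 9.88 ± 0.21 in embryonic fibroblasts and 8.37 ± 0.06 in cardiomyocytes.

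Among 23 genes of procollagen modification, folding and export, 2 were higher and 4 lower in adult than in embryonic fibroblasts (8.70% and 17.4%, against 8.34% and 11.2% of all genes). The lower ones were the prolyl 3-hydroxylase gene P3h2 (-1.25 ± 0.18), the chaperone gene Fkbp14 (-0.64 ± 0.11), the lysyl hydroxylase gene Plod3 (-0.58 ± 0.16) and P3h4 (-0.57 ± 0.12). The higher ones were Tmem38b (0.65 ± 0.13), an ion channel gene of the endoplasmic reticulum, and Mia3 (0.47 ± 0.14), whose protein loads collagen into transport vesicles. Embryonic fibroblasts had 5 of the 23 above cardiomyocytes and 0 below (21.7% and 0%, against 10.3% and 11.1% of all genes). At an unadjusted p under 0.05 the counts were 7 and 0. Those differing most were P4hb (0.91 ± 0.18), the partner subunit of the prolyl 4-hydroxylases, Plod3 (0.72 ± 0.16), P4ha1 and the vesicle coat gene Sec24d (0.63 ± 0.10). In adult fibroblasts 6 were above and 3 below cardiomyocytes (26.1% and 13%, against 17.4% and 18.2% of all genes). The largest difference was that of P3h2 (-1.41 ± 0.18).

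Of 9 genes of propeptide removal and cross-linking outside the set, 0 were higher and 1 lower in adult than in embryonic fibroblasts. These are 0% and 11.1%, against 8.34% and 11.2% of all genes. At an unadjusted p under 0.05 the counts were 2 and 1. The lower one, Tll1, encodes a protease related to Bmp1, and it averaged 7.26 ± 0.06 in adult fibroblasts and 7.98 ± 0.39 in embryonic fibroblasts (-0.72 ± 0.16, adjusted p = 0.0126). Against cardiomyocytes 1 was higher and 1 lower in embryonic fibroblasts (11.1% each, near the 10.3% and 11.1% of all genes). Adult fibroblasts had 4 higher and 1 lower (44.4% and 11.1%, against 17.4% and 18.2% of all genes). Bmp1, the main protease that trims the carboxyl end of procollagen, was above cardiomyocytes in embryonic fibroblasts (0.59 ± 0.12, adjusted p = 0.00610) and in adult fibroblasts (0.39 ± 0.12, adjusted p = 0.0272). Loxl3 and Loxl4, further lysyl oxidases, were higher in adult fibroblasts than in cardiomyocytes (0.42 ± 0.12 and 0.37 ± 0.11), as was Pcolce (0.64 ± 0.19). Tgm2, a transglutaminase that cross-links matrix proteins, was lower than in cardiomyocytes in both embryonic (-1.10 ± 0.25) and adult fibroblasts (-0.77 ± 0.25).

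The list of collagen receptors and uptake genes held the gene with the largest difference between adult and embryonic fibroblasts among the 74. Ddr2, a receptor kinase that binds fibrillar collagen and is also used as a fibroblast marker, read 10.98, 10.60 and 10.48 in adult fibroblasts, 8.61, 8.63 and 8.16 in embryonic fibroblasts and 6.97, 7.13 and 7.17 in cardiomyocytes. It was 4.65-fold higher in adult than in embryonic fibroblasts (2.22 ± 0.16, adjusted p = 1.72e-05) and 2.60-fold higher in embryonic fibroblasts than in cardiomyocytes (1.38 ± 0.16, adjusted p = 0.000429). The integrin subunit gene Itga11 was higher in adult than in embryonic fibroblasts (0.77 ± 0.10, adjusted p = 0.000733), and Itga2, another collagen-binding subunit, was lower (-0.74 ± 0.21, adjusted p = 0.0365). The groups overlapped for Itga2, with 8.98 on adult fibroblast replicate 3 and 8.95 on embryonic fibroblast replicate 3. In all, 2 of 9 were higher and 1 lower in that comparison (22.2% and 11.1%, against 8.34% and 11.2% of all genes). In embryonic fibroblasts against cardiomyocytes 3 were higher and 1 lower (33.3% and 11.1%, against 10.3% and 11.1% of all genes). In adult fibroblasts against cardiomyocytes 4 were higher and 1 lower (44.4% and 11.1%, against 17.4% and 18.2% of all genes).

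Of 14 regulators of collagen genes, 1 was higher and 2 lower in adult than in embryonic fibroblasts (7.14% and 14.3%, near the 8.34% and 11.2% of all genes). They were Tgfb2 (0.61 ± 0.15), a growth factor gene of the TGF-beta family, and Smad3 (-0.38 ± 0.10) and Srf (-0.51 ± 0.09), which encode transcription factors. Against cardiomyocytes 4 were higher and 1 lower in embryonic fibroblasts (28.6% and 7.14%, against 10.3% and 11.1% of all genes). Creb3l1, a transcription factor gene tied to collagen production in bone, averaged 8.33 ± 0.25 in adult fibroblasts, 8.74 ± 0.44 in embryonic fibroblasts and 7.44 ± 0.15 in cardiomyocytes (1.30 ± 0.21 for embryonic fibroblasts against cardiomyocytes, adjusted p = 0.00215). Tgfb1 was also higher there (0.94 ± 0.20), as were Ccn2 (0.91 ± 0.22) and Tgfb3 (0.42 ± 0.12). Nfyc, a subunit of the factor that binds CCAAT, was lower (-0.59 ± 0.10). Its partner subunits Nfya (0.06 ± 0.12, adjusted p = 0.810) and Nfyb (-0.04 ± 0.14, adjusted p = 0.892) did not pass there. Adult fibroblasts had 6 regulators above and 3 below cardiomyocytes (42.9% and 21.4%, against 17.4% and 18.2% of all genes).

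**Figure D5:**
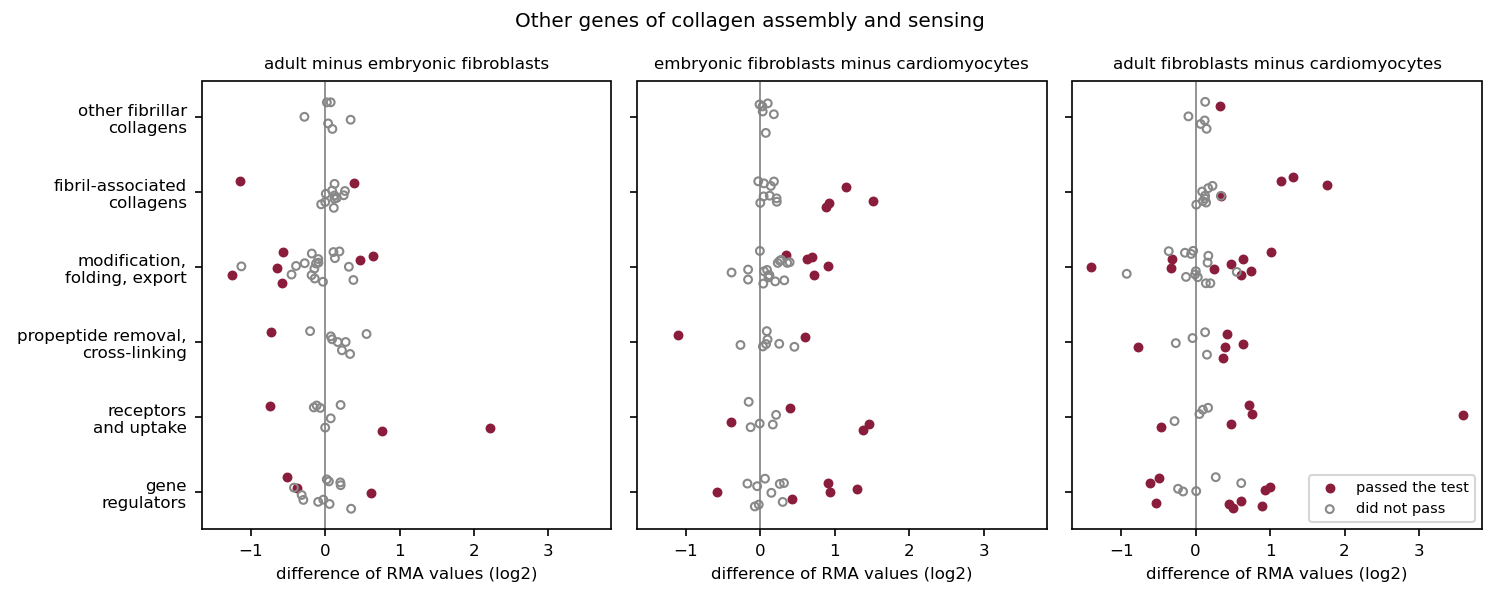
Difference between the group means (log2 of RMA values) of 74 genes of collagen assembly and sensing in 6 lists, for the 3 comparisons on a shared axis. Filled points passed the test, and the vertical scatter within a list only separates points. The 6 other fibrillar collagens lie near 0, and the point at 2.22 in the left panel is Ddr2.

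The genes whose pattern over the 9 arrays was most like the mean of the 5 collagen genes were sought among 2866 genes whose group means span at least 1 log2 unit. They were Dapk1 (Pearson r = 0.989), Pqlc3 (0.983), Prickle2, Dnah12, Tle3 and Prag1, the lowest at 0.977. For Lox they were Tle1 (0.993), Gnrh1 (0.985), Ubash3b, Tas2r135, Fam13b and Mex3c, the lowest at 0.977. Dapk1 averaged 8.61 in adult fibroblasts, 9.12 in embryonic fibroblasts and 8.06 in cardiomyocytes. Tle1 averaged 8.23 in adult fibroblasts, 8.33 in embryonic fibroblasts and 7.05 in cardiomyocytes. All these correlations rest on the same 9 arrays and mostly on the steps between the 3 groups, so they are descriptions.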

How the data were processed

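RMA values of 9 arrays were used as the authors deposited them. RMA, named without a version in the submitters' processing notes, subtracts background, brings arrays to a common distribution and gives a single value for the probes of a transcript. The deposited values still differed in spread. Their SD over all probes was 1.71 on adult fibroblast replicate 3 and 1.83 to 1.90 on the other arrays. Between 2.70 and 14.20, the values as deposited were taken to be log2, a base that the sources used here do not state. Their genome build was not given in the sources used here. Probes were named from the platform annotation: 21776 of 28767 had 1 gene symbol, 1618 several and 5373 none. RefSeq names (GRCm38.p6) changed 0 symbols. The brightest probe stood for each gene. Groups and replicate numbers came from the sample titles.

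A single limma fit (version 3.58.1, R 4.3.3) took all 9 arrays (a mean per group, lmFit, eBayes, two-sided, Benjamini-Hochberg over 19933 genes), after a test on simulated data. No filter was set on dim genes. Differences are given with the SE of the fit, and levels as mean ± SD. Exact permutation tests and figures used Python 3.11.15 and matplotlib 3.10.9. The genes named are the 10 of the set, up to 4 called genes with the largest difference in each list and comparison, and the 6 genes most correlated with the collagen mean and with Lox. Outside this rule, P4ha2, Nfya, Nfyb and the markers Tnnt2, Dcn, Pdgfra, Tcf21, Postn and Vim were named after their values were seen. The members, lists, markers and tests were chosen with earlier results of these data known. Same-numbered replicates of different groups had correlations of deviations of -0.20 to 0.20, and differently numbered ones -0.22 to 0.19. These values cannot show whether samples were paired, which the titles do not state. The main fit treated the samples as unpaired. Alternatives were a replicate block, median centring, quantile normalization, a filter on dim genes (mean under the 30th percentile), the mean of all probes, array weights, only the 2 groups compared, a robust trended prior, and each array left out in turn. Fold changes are folds between RMA values.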

Additional observations from a re-analysis of the deposited data

How the results depend on the processing

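The calls of Col3a1, Col5a2, P4ha3 and Pcolce2 between adult and embryonic fibroblasts, and those of Col1a1, Col1a2, Col3a1, Col5a2 and Lox between embryonic fibroblasts and cardiomyocytes, kept their direction and passed under all alternatives run. The number of genes of the set higher in adult than in embryonic fibroblasts was 1 and became 2 with quantile normalization and array weights, and 1 to 2 with an array left out. Among the 74 other genes, those higher in adult than in embryonic fibroblasts numbered 6, and 11 with quantile normalization, 12 with array weights and 3 to 9 with an array left out. The lower ones numbered 9, and 5 with only the 2 groups fitted and 5 to 11 with an array left out. With an array left out, those lower in embryonic fibroblasts than in cardiomyocytes ranged from 1 to 5, and in adult fibroblasts against cardiomyocytes from 15 to 26 higher and from 5 to 9 lower. With the replicate block Col5a1 was no longer called in adult fibroblasts against cardiomyocytes (adjusted p = 0.0595), which left 7 genes of the set higher, and the block changed no other call of the 9 genes. With an array left out, the Col5a1 difference between adult and embryonic fibroblasts ranged from -0.17 to 0.007, positive without embryonic fibroblast replicate 1. Uncalled differences within arrays that also crossed 0 were, in adult against embryonic fibroblasts, Col1a1 minus Col1a2 (-0.0567 to 0.0748, and -0.0018 without adult fibroblast replicate 1) and Lox minus Col1a1 (-0.0595 to 0.248), and, in adult fibroblasts against cardiomyocytes, Col1a1 minus Col1a2 (-0.156 to 0.0028), Col3a1 minus Col5a2 (-0.0215 to 0.073) and Loxl1 minus Col1a1 (-0.0463 to 0.172, and -0.0188 without cardiomyocyte replicate 1). The cause of these shifts was not tested. Signal over background cannot be read from RMA values, which limits what can be said of dim genes and of the 5 collagen genes.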
